A study of Rattus norvegicus with 6 samples.

Results

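The genes described here encode the proteins of the mitochondrial ribosome. They were taken as the rows of the gene table whose symbol begins with Mrpl or Mrps followed by a number and whose transcript type includes protein coding. Of 32623 genes in the table, 76 met this rule, 45 of the large subunit and 31 of the small subunit by name. Reads were counted for 74 of them, 45 large and 29 small, and all 74 passed the filter for testing, which kept 12229 genes with at least 1 FPKM (fragments per kilobase of transcript, scaled to the size of the library) in at least 2 libraries. The 2 members left over, both named Mrps21l, had 0 counts in every library.

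RNA sequencing had been done on H9C2 cells, a myoblast line from embryonic rat heart, grown in medium with 1 g/L glucose. The groups were cells transfected with siRNA against FGFR1 and then given 33 mM glucose for 8 h (siFGFR1+HG), cells given 33 mM glucose for 8 h (HG), and untreated cells (Ctrl), with 2 libraries each. No label names a control siRNA, a mock transfection of the HG and Ctrl cells or an osmotic control, so an effect of the siRNA cannot be told apart from one of transfection, nor one of glucose from one of osmolarity. Whether the 2 libraries of a group are separate cultures is not given, so the p-values rest on a spread between libraries that may be technical.

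Counts per library summed to between 46960084 and 75021470. Fgfr1 itself had 4 and 0 counts in siFGFR1+HG, 0 and 0 in HG and 0 and 4 in Ctrl, which is too few reads to check the knockdown. All 6 myoblast and muscle markers reached 1 FPKM, and their sum, most of it Vim, was 1810 to 1853 FPKM in siFGFR1+HG, 1709 to 1757 in HG and 2004 to 2121 in Ctrl. Myod1, the myoblast transcription factor, stood at 62.9 to 67.4 FPKM over all libraries. Markers of muscle differentiation differed between the groups. Myog had 16.1 and 16.9 FPKM in siFGFR1+HG, 21.9 and 23.4 in HG and 25.3 and 27.4 in Ctrl. Myh3 had 4.35 and 4.64 FPKM in siFGFR1+HG, 8.44 and 7.73 in HG and 9.96 and 8.30 in Ctrl, and Des 4.25 and 4.67 in siFGFR1+HG, 5.29 and 5.54 in HG and 7.80 and 7.40 in Ctrl. Myog, Myh3 and Des were lowest in siFGFR1+HG without overlap with the other groups. Cdh15 and Vim, of the same list, were instead higher in siFGFR1+HG than in HG and highest in Ctrl. Cdh15 had 128.7 and 125.5 FPKM in siFGFR1+HG, 116.1 and 118.2 in HG and 137.9 and 139.2 in Ctrl. Vim had 1637 and 1595 FPKM in siFGFR1+HG, 1538 and 1489 in HG and 1759 and 1872 in Ctrl. Of 4 cardiomyocyte markers only Tnnt2 reached 1 FPKM in any library, at 75.7 and 75.7 in siFGFR1+HG, 125 and 127 in HG and 129 and 123 in Ctrl. Macrophage and endothelial markers were near 0, with summed levels of at most 1.70 and 0.207 FPKM in any library. The 4 epithelial markers summed to 18.3 to 19.6 FPKM in siFGFR1+HG, 19.6 to 21.3 in HG and 25.7 to 26.1 in Ctrl, nearly all of it Krt8, with Epcam at 0 counts. A list of 5 fibroblast markers, 4 of them at 1 FPKM or more and Pdgfra at or near 0, summed to 4964 to 5025 FPKM in siFGFR1+HG, 3657 to 3689 in HG and 3837 to 4100 in Ctrl. The part of all these markers in the results was not tested. In these bulk samples fewer cells of a type and less RNA per cell cannot be told apart.

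Mitochondrial ribosomes translate the mRNAs of the mitochondrial genome, which encode core subunits of the respiratory chain and ATP synthase. Their RNAs are made in the organelle, whereas all of their proteins are encoded in the nucleus and imported. The small subunit binds the mRNA and decodes it, and the large subunit joins the amino acids and holds the exit tunnel. Some of the proteins have homologues in bacterial ribosomes, and others are found only in mitochondria.

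Levels spanned a 28.9-fold range among the 74 members, with means over the 6 libraries between 3.86 FPKM for Mrpl1 and 112 FPKM for Mrpl17. The median was 27.3 FPKM in the large subunit and 24.4 FPKM in the small subunit. Mrpl17, a homologue of bacterial L17, stood at 101 and 99.9 FPKM in siFGFR1+HG, 120 and 121 in HG and 121 and 107 in Ctrl. It was the highest member in the mean and was followed by Mrps6, Mrpl54 and Mrpl28, at means of 85.6, 84.7 and 83.3 FPKM. Mrps6 is the homologue of bacterial S6, which lies on the platform of the small subunit. In all 6 libraries the same 8 genes were among the 10 highest, namely Mrpl13, Mrpl17, Mrpl23, Mrpl27, Mrpl28, Mrpl43, Mrpl54 and Mrps6. Means of 50 FPKM or more were seen for 10 large-subunit genes and 2 small-subunit genes, Mrps6 and Mrps34, with Mrps25 next in the small subunit at 49.7 FPKM. At the low end of the large subunit were Mrpl1 (3.86 FPKM), Mrpl57 (6.84) and Mrpl36 (7.36), and of the small subunit Mrps36 (7.73), Mrps28 (7.83) and Mrps10 (7.98).

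**Figure D1:**
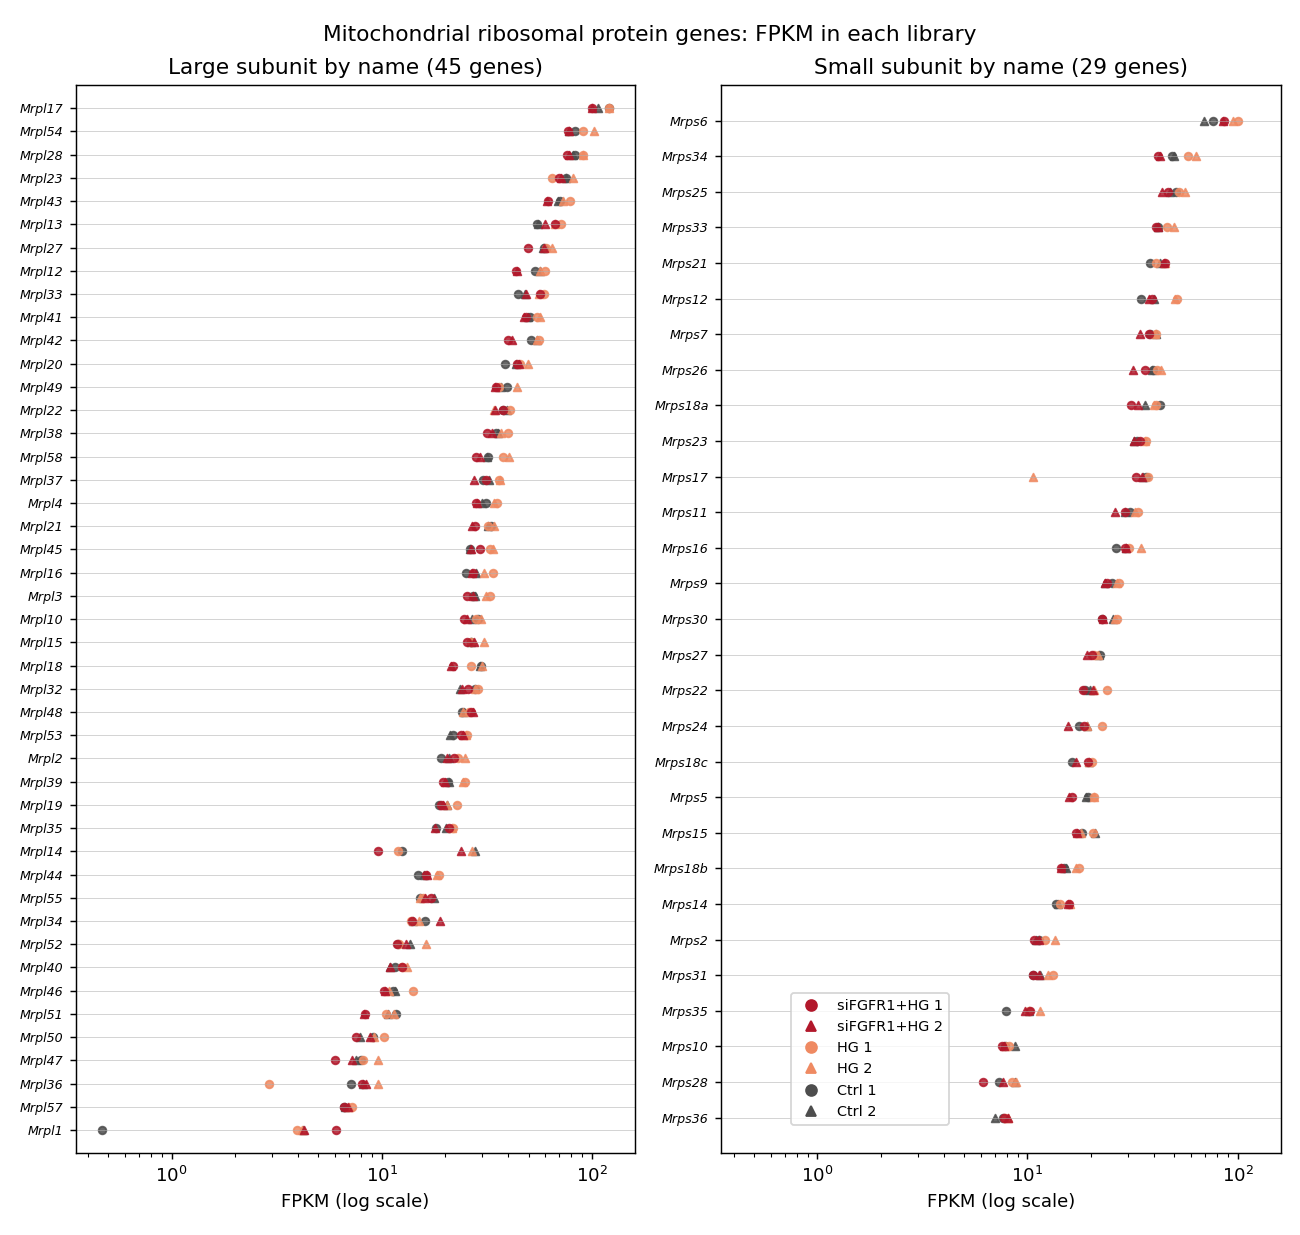
FPKM on a log axis of each tested mitochondrial ribosomal protein gene in the 6 libraries, with large-subunit genes on the left and small-subunit genes on the right, ordered by mean; colours are groups, circles replicate 1 and triangles replicate 2. Most genes span a narrow range, and Mrpl1, Mrpl14, Mrpl36 and Mrps17 have libraries that lie far from the others.

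Between the libraries of a group the median ratio of the higher to the lower FPKM value over members was 1.05 in siFGFR1+HG, 1.06 in HG and 1.07 in Ctrl. Only 4 members (5.41%) reached a ratio of 2 in any group, against 6.26% of all genes tested. Mrpl14, a homologue of bacterial L14 at the subunit interface, had 9.60 and 23.9 FPKM in siFGFR1+HG, 11.9 and 27.0 in HG and 12.5 and 27.8 in Ctrl. Replicate 1 of Mrpl14 was the lower library in all 3 groups. Mrps17, a homologue of bacterial S17, had 32.8 and 35.03 FPKM in siFGFR1+HG, 37.5 and 10.6 in HG and 36.6 and 35.3 in Ctrl, so that HG 2 stood apart. Mrpl36, a homologue of bacterial L36, had 8.03 and 8.41 FPKM in siFGFR1+HG, 2.91 and 9.56 in HG and 7.12 and 8.14 in Ctrl, with HG 1 low. For Mrpl1, which forms the mobile stalk beside the tRNA exit site, FPKM values were 6.09 and 4.29 in siFGFR1+HG, 3.95 and 4.16 in HG and 0.466 and 4.22 in Ctrl, with Ctrl 1 low at 29 counts. None of these 4 genes passed the test in any comparison with all libraries in the fit.

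**Figure D2:**
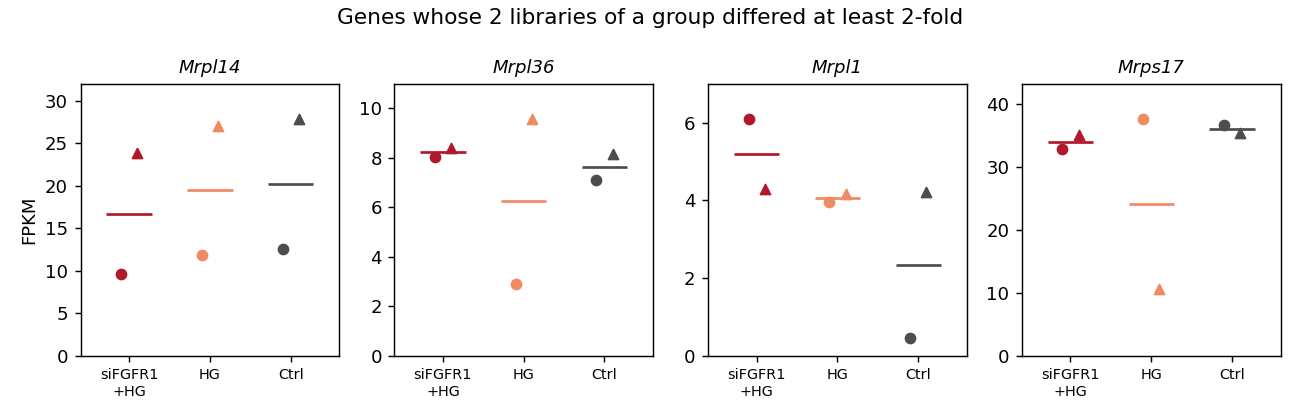
FPKM by group of the 4 members whose libraries differed at least 2-fold within a group; circles are replicate 1, triangles replicate 2 and lines the mean of 2 libraries. Mrpl14 is split by replicate in all 3 groups, while in Mrpl36, Mrpl1 and Mrps17 a single library is low.

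Mrpl1 and Mrpl36 each have a second row in the table under the description "like", LOC100359687 for L1 and LOC100910528 for L36, and the counting could have split reads between them. In CPM, counts scaled to the size of the library with no allowance for length, Mrpl1 and its copy summed to 12.2 and 10.9 in siFGFR1+HG, 11.7 and 13.7 in HG and 10.03 and 12.5 in Ctrl. In Ctrl 1, where Mrpl1 was low at 0.536, the copy was at 9.49, its highest value of the 6 libraries. The sum for L36 was 8.31 and 8.82 in siFGFR1+HG, 12.4 and 9.51 in HG and 7.54 and 8.61 in Ctrl. In HG 1 Mrpl36 was at its lowest value of 0.899 and its copy at its highest value of 11.5. Both pairs are therefore uncertain as single genes. Mrpl53 also has a second row, LOC103692169, described as L53 without "like". It had 637 and 608 counts in siFGFR1+HG, 765 and 710 in HG and 638 and 831 in Ctrl. Mrpl53 had 471 and 429 in siFGFR1+HG, 551 and 491 in HG and 440 and 592 in Ctrl. Whether reads were split between them was not tested, so Mrpl53 is uncertain as a single gene too. In total 10 rows that describe mitochondrial ribosomal proteins fell outside the rule, 9 of them with counts, among them mrpl9, mrpl11 and mrpl24, written in lower case. None of those that were tested passed in any comparison.

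Cells given the siRNA before high glucose were first set against cells given high glucose alone. Mitochondrial ribosomal protein genes were lower in siFGFR1+HG: 26 of 74 (35.1%) fell and 0 rose, against 15.9% of all 12229 tested genes that fell and 14.1% that rose (29.9% in either direction). By subunit, 18 of 45 large-subunit genes and 8 of 29 small-subunit genes fell. The median log2 fold change of the members was -0.19, with -0.20 in the large and -0.19 in the small subunit, against -0.01 over all genes tested. Negative values were found for 65 of the 74. On scaled counts both siFGFR1+HG libraries lay below both HG libraries in 54 members (73.0%), against 34.1% of all genes tested, and above both in 4 members (5.41%), against 31.9%. Genes were called by edgeR's quasi-likelihood test at a Benjamini-Hochberg adjusted p under 0.05 over all 12229 genes. The members' standard errors were somewhat smaller than those of other genes, with a median of 0.08 on the log2 scale against 0.09, and no test of the list as a whole was made.

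**Figure D3:**
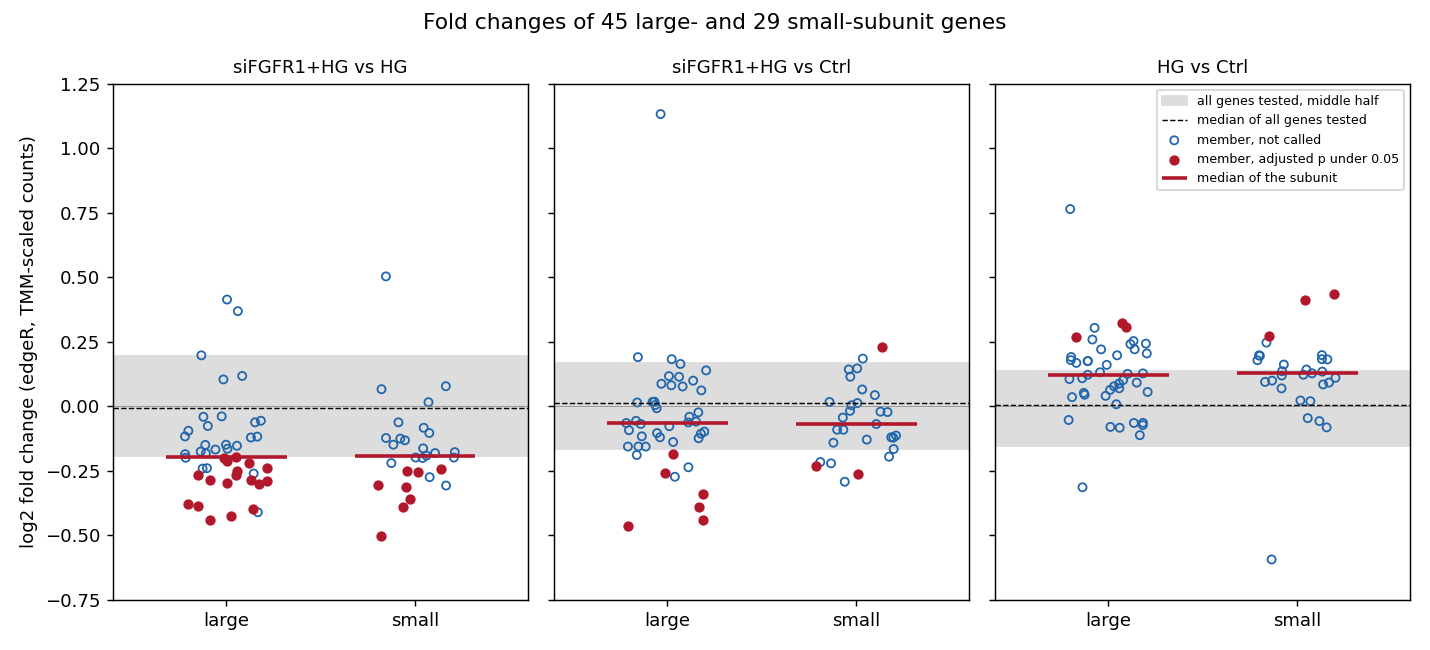
Log2 fold changes from edgeR of the 45 large- and 29 small-subunit genes in the 3 comparisons; filled points passed an adjusted p of 0.05, red lines are subunit medians, the grey band is the interquartile range of all genes tested and the dashed line their median. In siFGFR1+HG against HG both subunit medians, -0.20 and -0.19, lie near the lower edge of the band.

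In the small subunit Mrps34, a mitochondria-specific protein needed for the stability of that subunit, fell most. It had 42 and 42.5 FPKM in siFGFR1+HG, 58.0 and 63.2 in HG and 48.9 and 50.03 in Ctrl. Both siFGFR1+HG libraries were below the other 4. Against HG the level was lower by 1.42-fold (log2 -0.51 ± 0.06, adjusted p = 0.00156 by edgeR's quasi-likelihood test). After a log2 value, ± gives the standard error derived from the fit of all 6 libraries, 2 a group, with a spread partly shared across genes. In the coordinates of the deposited table, whose build is not settled, the gene lies on chromosome 10 from 14257001 to 14258132 on the plus strand. Mrps5, a homologue of bacterial S5 at the mRNA entry channel, had 16.3 and 15.8 FPKM in siFGFR1+HG, 20.7 and 20.7 in HG and 19.4 and 18.9 in Ctrl. Its groups did not overlap, and it was 1.28-fold lower than in HG (log2 -0.36 ± 0.05, edgeR adjusted p = 0.00262). Mrps12, the homologue of bacterial S12 in the decoding centre, was at 39.2 and 37.9 FPKM in siFGFR1+HG, 51.5 and 50.6 in HG and 34.6 and 39.9 in Ctrl. It fell against HG by 0.39 ± 0.08 on the log2 scale (edgeR adjusted p = 0.0121) and overlapped with Ctrl. The call of Mrps12 was lost without HG 1, HG 2 or siFGFR1+HG 2, at an adjusted p of up to 0.0624.

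Among large-subunit genes Mrpl42, a mitochondria-specific protein, fell most. Its FPKM values were 39.7 and 41.6 in siFGFR1+HG, 56.4 and 55.1 in HG and 51.2 and 55.0 in Ctrl. With siFGFR1+HG apart from both other groups, the level was 1.36-fold lower than in HG (log2 -0.44 ± 0.06, edgeR adjusted p = 0.00353). Mrpl58, also known as ICT1, is a peptidyl-tRNA hydrolase that rescues stalled ribosomes and is built into the large subunit. It had 28.01 and 29.4 FPKM in siFGFR1+HG, 37.6 and 40.2 in HG and 32.2 and 31.6 in Ctrl, a 1.34-fold lower level than in HG (log2 -0.43 ± 0.07, edgeR adjusted p = 0.00459). Mrpl12, the stalk protein that recruits translation factors, had 43.5 and 43.9 FPKM in siFGFR1+HG, 59.7 and 56.5 in HG and 53.7 and 56.7 in Ctrl. HG and Ctrl overlapped for Mrpl12, and siFGFR1+HG was below both (log2 -0.40 ± 0.05 against HG, edgeR adjusted p = 0.00192).

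In all, 8 of the 26 calls were kept in each of 17 alternatives, which included leaving out each library in turn: those of Mrps34, Mrpl42, Mrpl58, Mrpl12, Mrps5, Mrpl43, Mrpl4 and Mrpl28. Mrpl4 lines the exit tunnel in bacteria, where its homologue is L4, and had 28 and 28.5 FPKM in siFGFR1+HG, 35.2 and 34.2 in HG and 31.3 and 30.1 in Ctrl. Mrpl28 stood at 76.2 and 77.9 FPKM in siFGFR1+HG, 90.8 and 90.4 in HG and 83.3 and 81.1 in Ctrl. Mrpl43 was at 61.9 and 61.2 FPKM in siFGFR1+HG, 78.3 and 73.1 in HG and 70.3 and 69.2 in Ctrl. For all 3 genes HG was highest and siFGFR1+HG lowest without overlap. The other 18 calls were lost without at least 1 library, and the count of called members was 11 to 15 when a siFGFR1+HG or HG library was left out. Without HG 1 the test called Mrps17 higher in siFGFR1+HG, and without HG 2 it called Mrpl36 higher, in each case with the unusual library left alone in its group.

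**Figure D4:**
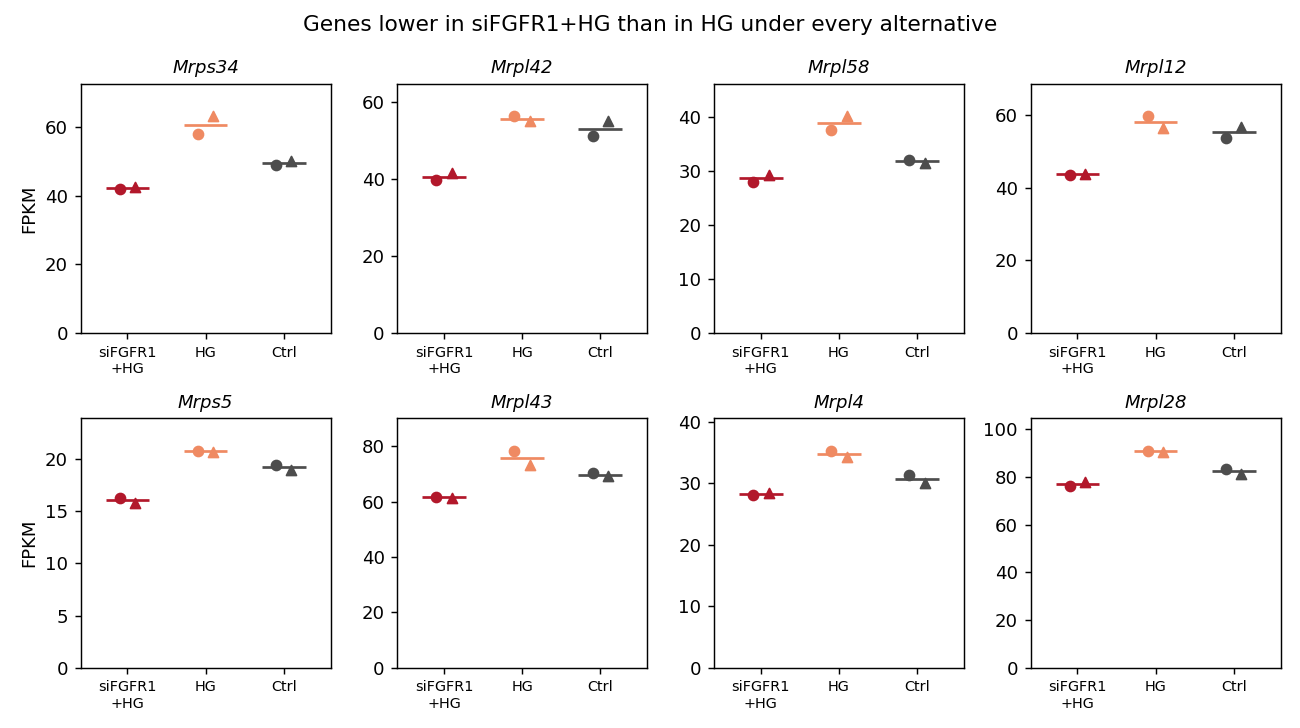
FPKM by group of the 8 members called lower in siFGFR1+HG than in HG with all libraries and in each of 17 alternatives; circles are replicate 1, triangles replicate 2 and lines the mean of 2 libraries. In every panel both siFGFR1+HG points lie below the HG and Ctrl points.

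Among the calls lost without some library were those of Mrpl51 (log2 -0.39 ± 0.08), Mrpl18 (-0.38 ± 0.08), Mrps18a (-0.31 ± 0.09) and Mrps26 (-0.31 ± 0.07). Mrpl18 is the homologue of bacterial L18, which binds the 5S RNA. Its FPKM values were 21.8 and 21.3 in siFGFR1+HG, 26.7 and 29.97 in HG and 29.8 and 29.4 in Ctrl. Mrpl17, the member with the highest level, fell by 0.25 ± 0.06 on the log2 scale (edgeR adjusted p = 0.0222), and it did not pass once any 1 of the siFGFR1+HG or HG libraries was left out. The names of 3 members do not give their place. Mrps18a and Mrps30 sit in the large subunit in mammalian structures, and Mrps36 has been assigned to the oxoglutarate dehydrogenase complex. Mrps30 (log2 -0.20 ± 0.07) and Mrps36 (0.02 ± 0.09) did not pass the test.

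Members found only in mitochondria and members with bacterial homologues can be set side by side. Of all genes tested, 15.9% fell against HG. In the large subunit 10 of 19 mitochondria-specific genes (52.6%) fell, with a median log2 fold change of -0.24. Of 26 with a bacterial homologue 8 (30.8%) fell, with a median of -0.16. In the small subunit 4 of 10 specific genes (40%) fell, with a median of -0.21, and 3 of 16 homologues (18.75%), with a median of -0.17. Median standard errors were smaller for the specific genes, at 0.0705 against 0.0874 in the large and 0.0662 against 0.0782 in the small subunit. For siFGFR1+HG against Ctrl the medians in the large subunit were -0.07 for specific genes and -0.06 for homologues. In the small subunit they were -0.05 and -0.07. The difference between the classes was not tested.

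Lists of related genes were counted in the same comparison, beside the 15.9% of all genes tested that fell. Of 82 cytosolic ribosomal protein genes, 21 fell (25.6%) and 0 rose, with a median log2 fold change of -0.08. Of 79 nuclear genes for oxidative phosphorylation, 11 fell (13.9%, near the share of all genes) and 1 rose, with a median of -0.07. The medians of both lists lay closer to the -0.01 of all genes than did the -0.19 of the mitochondrial ribosomal protein genes, and whether the lists differ was not tested.

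Proteins of the mitochondrial ribosome with other names were also measured. Gadd45gip1, a large-subunit protein at the tunnel exit also called CRIF1, had 42.7 and 43.4 FPKM in siFGFR1+HG, 56.6 and 54.8 in HG and 48.7 and 49.4 in Ctrl. It fell against HG by 0.36 ± 0.04 on the log2 scale (edgeR adjusted p = 0.00206), a call kept in all 17 alternatives. Chchd1, of the small subunit, fell by 0.43 ± 0.09 (edgeR adjusted p = 0.0130, and 0.0606 without HG 2). Dap3, Ptcd3 and Aurkaip1, the other small-subunit proteins listed, had log2 values of -0.14, -0.07 and -0.15 and did not pass the test.

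Among 12 genes listed as translation factors 2 fell (16.7%, near the 15.9% of all genes). The list includes Mief1, a gene of mitochondrial fission, which did not pass the test. The first of the 2 was Tufm, the elongation factor that brings tRNAs to the ribosome. Tufm had 61.9 and 64.4 FPKM in siFGFR1+HG, 77.3 and 75.9 in HG and 78.1 and 76.0 in Ctrl. It fell against HG by 0.27 ± 0.04 on the log2 scale (edgeR adjusted p = 0.00479, kept in all 17 alternatives). The second was Guf1, whose call was lost without any 1 of the 6 libraries. Of 25 ribosome assembly genes 4 fell (16%, likewise near that of all genes): Dhx30 (-0.24 ± 0.05), an RNA helicase, Fastkd2 (-0.49 ± 0.12), Mterf4 (-0.50 ± 0.13) and Rbfa (-0.20 ± 0.06), and each call was lost without at least 1 library. Of 21 genes listed with the mitochondrial aminoacyl-tRNA synthetases 1 fell (4.76%), below the share of all genes. Of 19 genes listed for mitochondrial transcription and RNA handling, which include Polg and Twnk for DNA replication, 6 fell (31.6%). They included Elac2, which cuts tRNA ends (log2 -0.42 ± 0.07, kept in all 17 alternatives), Tfam, which packs and transcribes mitochondrial DNA (-0.38 ± 0.07), and Polg, the mitochondrial DNA polymerase (-0.23 ± 0.05). The calls of Tfam and Polg were lost without siFGFR1+HG 1, and Tfam also without HG 2 and Polg without HG 1.

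Regulators of nuclear genes for mitochondria moved both ways, with 2 of 9 lower (22.2%) and 1 higher (11.1%) in siFGFR1+HG than in HG. Of all genes tested 15.9% were lower and 14.1% higher. Nrf1, nuclear respiratory factor 1, had 7.72 and 6.90 FPKM in siFGFR1+HG, 8.998 and 9.61 in HG and 9.59 and 10.4 in Ctrl. It fell by 0.33 ± 0.08 against HG (edgeR adjusted p = 0.0220, and up to 0.106 with a library left out). The coactivator gene Pprc1 fell by 0.19 ± 0.05, a call lost without HG 2 or either siFGFR1+HG library. Ppargc1b, a coactivator related to PGC-1 alpha, was at 2.35 and 1.98 FPKM in siFGFR1+HG, 1.26 and 1.06 in HG and 1.84 and 1.93 in Ctrl. It rose against HG by 0.91 ± 0.17 (edgeR adjusted p = 0.0100, and 0.0587 without siFGFR1+HG 1). Gabpa, which binds the ETS motif as part of nuclear respiratory factor 2, and Yy1 did not pass the test against HG (log2 -0.14 and 0.07). Ppargc1a, which encodes PGC-1 alpha, was listed at 0 counts in all libraries.

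Promoter sequences are shown because NRF1, ETS factors and YY1 are known to act at promoters of nuclear genes for mitochondria. RefSeq promoters of the GRCr8 build, 250 bases before to 50 after each gene start, were matched by symbol for 59 of the 74 members. The 120 bases before the start follow for the 3 matched genes of each subunit that fell most in siFGFR1+HG against HG and for the matched gene of each subunit that rose most in HG against Ctrl. Capitals mark the cores searched on both strands, CCGGAAG for ETS factors, GCGC, any 2 bases and GCGC for NRF1 and AAGATGG for YY1, where they fall within these bases.
Mrpl42: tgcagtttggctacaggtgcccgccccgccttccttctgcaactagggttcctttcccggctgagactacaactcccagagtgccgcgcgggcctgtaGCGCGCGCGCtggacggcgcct
Mrpl58: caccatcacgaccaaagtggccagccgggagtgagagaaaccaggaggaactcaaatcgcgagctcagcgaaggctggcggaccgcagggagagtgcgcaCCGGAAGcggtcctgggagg
Mrpl12: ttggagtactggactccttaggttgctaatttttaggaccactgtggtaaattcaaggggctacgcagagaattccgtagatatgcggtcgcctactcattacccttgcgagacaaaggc
Mrps5: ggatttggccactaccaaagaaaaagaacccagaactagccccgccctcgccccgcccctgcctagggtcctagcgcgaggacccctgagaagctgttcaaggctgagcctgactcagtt
Mrps18a: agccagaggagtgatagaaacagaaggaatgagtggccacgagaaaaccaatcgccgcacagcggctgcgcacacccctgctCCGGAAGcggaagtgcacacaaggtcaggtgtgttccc
Mrps26: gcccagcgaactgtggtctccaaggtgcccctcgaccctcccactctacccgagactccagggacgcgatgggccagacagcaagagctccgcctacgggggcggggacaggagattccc
Mrpl45: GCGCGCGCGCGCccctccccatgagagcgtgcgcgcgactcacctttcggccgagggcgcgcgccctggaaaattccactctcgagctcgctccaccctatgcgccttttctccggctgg
Mrps6: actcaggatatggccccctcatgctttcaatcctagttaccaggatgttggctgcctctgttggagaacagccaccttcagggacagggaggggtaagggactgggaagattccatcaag
In these stretches Mrpl42 and Mrpl45 carry NRF1 cores, Mrpl58 and Mrps18a carry an ETS core, and Mrpl12, Mrps5, Mrps26 and Mrps6 carry none of the 3. In GRCr8 the stretches lie for Mrpl42 at chr7:32028523-32028642 on the minus strand, Mrpl58 at chr10:101145222-101145341 on the plus strand, Mrpl12 at chr10:106256626-106256745 on the plus strand, Mrps5 at chr3:135274213-135274332 on the plus strand, Mrps18a at chr9:22367381-22367500 on the minus strand, Mrps26 at chr3:138222204-138222323 on the plus strand, Mrpl45 at chr10:82804919-82805038 on the plus strand and Mrps6 at chr11:44778547-44778666 on the plus strand.

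Over the whole 300 bases, the ETS core was found in 20 of 59 members (33.9%), against 19.6% of promoters of tested genes and 9.22% of all 27457 promoters in the table. The YY1 core was found in 16 members (27.1%), against 9.01% and 7.30%. NRF1 cores were in 11 members (18.6%), against 14.4% and 6.15%. Most YY1 matches, 11 of 17, began after the gene start, and 14 of 22 ETS matches began within the 100 bases before it. Mrpl45 alone held 7 of the 18 NRF1 matches, some of them overlapping. The ETS core was present in 32.2% of cytosolic ribosomal protein promoters and 27.3% of those for oxidative phosphorylation. For the YY1 core these shares were 15.25% and 25.8%, the latter near that of the members. For the NRF1 core they were 11.9% and 21.2%, the latter above that of the members. Members with and without a match are given side by side for siFGFR1+HG against HG, as a description. In that comparison 15.9% of all genes tested and 35.1% of the 74 members fell. With an ETS core 6 of 20 fell and without one 15 of 39, at median log2 values of -0.12 and -0.20. With an NRF1 core 6 of 11 fell and without one 15 of 48, at medians of -0.22 and -0.18. With a YY1 core 4 of 16 fell and without one 17 of 43, at medians of -0.18 and -0.20. Differences by motif were not tested.

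Many members lie next to another gene. In the deposited coordinates 21 of the 74 (28.4%) had the start of a gene on the opposite strand within 1000 bases of their own, against 12.5% of all genes tested. Mrps11 and Mrpl46 form such a pair, with starts 72 bases apart on chromosome 1. Mrps11 had 29.2 and 26.1 FPKM in siFGFR1+HG, 33.6 and 32.5 in HG and 30.8 and 29.2 in Ctrl (log2 -0.24 ± 0.07 against HG, edgeR adjusted p = 0.0498), and the call was lost under 12 of 17 alternatives. Mrpl46 had 10.3 and 10.3 FPKM in siFGFR1+HG, 14.1 and 10.8 in HG and 11.3 and 11.6 in Ctrl (log2 -0.26 ± 0.14) and did not pass. Mrps12 starts 16 bases from Sars2, the mitochondrial seryl-tRNA synthetase gene, which did not pass the test (log2 -0.23 ± 0.15). Other partners did fall against HG. They were Tcp1 beside Mrpl18 (log2 -0.37, edgeR adjusted p = 0.00189), Mtbp beside Mrpl13 (-0.44, 0.00259) and Psma2 beside Mrpl32 (-0.20, 0.0439). Mrpl18 was itself called lower, and Mrpl13 and Mrpl32 were not. The remaining tested partners did not pass. A link between the genes of a pair was not tested. Some members overlap a gene on the other strand, among them Mrpl43 with Twnk, Mrpl13 with Mtbp, Mrpl21 with Ighmbp2 and Mrps7 with Gga3. The labels do not say whether counting used strand, so reads of these partners may not be told apart. Mrps18a overlaps Rsph9, which had 0 counts in all 6 libraries.

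High glucose alone was then set against no treatment. Of the 74 members 6 rose in HG (8.11%) and 0 fell, against 5.81% of all genes tested that rose and 7.85% that fell, so the share that rose was near that of all genes (13.7% of which were called in either direction). Over all genes 42.5% of the calls were higher in HG, and 57.6% when limma was run on log2(FPKM + 1), where 688 rose and 506 fell. The members' values leaned upward all the same, with a median log2 fold change of 0.12 in the large and 0.13 in the small subunit against 0.00 over all genes, and with 62 of 74 above 0. Both HG libraries lay above both Ctrl libraries in 41 members (55.4%), against 29.3% of all genes, and below both in 1 member (1.35%), against 30%. Cytosolic ribosomal protein genes had a median of 0.10, with 20 of 82 higher (24.4%), and genes for oxidative phosphorylation a median of 0.09, with 7 of 79 higher (8.86%) and 1 lower.

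Mrps12 rose most, with the values given above, by 1.35-fold (log2 0.44 ± 0.08, edgeR adjusted p = 0.0178). Mrps6 had 85.7 and 85.6 FPKM in siFGFR1+HG, 101 and 95.6 in HG and 76.8 and 69.1 in Ctrl. The 3 groups of Mrps6 did not overlap, and HG was 1.33-fold above Ctrl (log2 0.41 ± 0.06, edgeR adjusted p = 0.0116). Mrpl45, which holds the ribosome at the inner membrane, was at 29.4 and 26.5 FPKM in siFGFR1+HG, 32.8 and 33.9 in HG and 26.4 and 26.3 in Ctrl (log2 0.32 ± 0.06 for HG against Ctrl, edgeR adjusted p = 0.0173). Mrpl13, a homologue of bacterial L13, had 66.5 and 59.8 FPKM in siFGFR1+HG, 71.6 and 66.7 in HG and 54.8 and 55.5 in Ctrl (log2 0.31 ± 0.06, edgeR adjusted p = 0.0284). Mrps34 (0.27 ± 0.06) and Mrpl58 (0.27 ± 0.06) were the other 2 that rose.

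None of these 6 calls held without each of the 6 libraries in turn, and the number of members called was 1 to 3 when an HG or Ctrl library was left out. Without HG 1 the test called Mrps17 lower in HG, and without Ctrl 2 it called Mrpl1 higher. The call of Mrps6 was lost only without HG 1, at an adjusted p of 0.0507. Outside the members, Dap3, a GTP-binding protein of the small subunit, rose by 0.31 ± 0.05 on the log2 scale, and Rbfa, Mterf4, Grsf1 and Esrra rose by 0.30, 0.53, 0.22 and 0.24. Ppargc1b fell by 0.72 ± 0.17. Each of these calls was lost without either of the Ctrl libraries. By list, 2 of 25 ribosome assembly genes (8%) and 1 of 19 for transcription and RNA handling (5.26%) rose. These shares were near the 5.81% of all genes. Of 4 small-subunit proteins with other names 1 rose (25%), and of 9 regulators 1 rose and 1 fell (11.1% each). Of 12 translation factors and of 21 genes listed with the mitochondrial aminoacyl-tRNA synthetases 0 rose and 0 fell.

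Both comparisons above use the HG libraries, so a high or low value there enters each with opposite sign. For the 6 genes that rose in HG, the log2 values in siFGFR1+HG against HG were -0.39 for Mrps12, -0.18 for Mrps6, -0.24 for Mrpl45, -0.12 for Mrpl13, -0.51 for Mrps34 and -0.43 for Mrpl58. Those of Mrps6 and Mrpl13 did not pass the test there.

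In siFGFR1+HG against Ctrl, 8 members fell (10.8%) and 1 rose (1.35%), against 12.4% of all genes tested that fell and 9.82% that rose (22.3% in either direction). Both siFGFR1+HG libraries lay below both Ctrl libraries in 32 members (43.2%), against 31.6% of all genes, and above both in 12 members (16.2%), against 32.4%. The share of members called lower was thus near that of all genes. The median log2 fold change was -0.07 in each subunit, against 0.01 over all genes. The 8 were Mrpl18, Mrpl51, Mrpl42, Mrpl12, Mrps5, Mrpl21, Mrps34 and Mrpl43, and the riser was Mrps6. Mrpl18 fell by 0.46 ± 0.08 on the log2 scale (edgeR adjusted p = 0.00826), Mrpl42 by 0.39 ± 0.06 (0.00728) and Mrpl12 by 0.34 ± 0.05 (0.00428), and these 3 calls were kept in all 17 alternatives. Mrpl51, with 8.34 and 8.23 FPKM in siFGFR1+HG and 11.7 and 10.7 in Ctrl, fell by 0.44 ± 0.08 (edgeR adjusted p = 0.0120), a call lost without Ctrl 1 or either siFGFR1+HG library. Mrpl21, at 27.8 and 26.9 FPKM in siFGFR1+HG and 33.1 and 32.1 in Ctrl, fell by 0.26 ± 0.06 (edgeR adjusted p = 0.0274) and lost its call without any 1 of these 4 libraries. The fall of Mrps5 (0.26 ± 0.05) was lost without Ctrl 1, and those of Mrps34 (0.23 ± 0.06) and Mrpl43 (0.19 ± 0.05) without any 1 of the same 4 libraries. The rise of Mrps6 by 0.23 ± 0.06 (edgeR adjusted p = 0.0460) was lost without 5 of the 6 libraries, the exception being Ctrl 1. Without Ctrl 2, which left Ctrl 1 alone, Mrpl1 was called higher.

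Other genes of mitochondrial gene expression were called in both directions between siFGFR1+HG and Ctrl, where 12.4% of all genes tested fell and 9.82% rose. Of the 19 genes listed for transcription and RNA handling 4 fell (21.05%) and 1 rose (5.26%). Of 9 regulators 3 fell (33.3%) and 1 rose (11.1%). The shares that fell were below that of all genes in the other lists. They were 1 of 12 translation factors (8.33%), 1 of 25 ribosome assembly genes (4%) and 0 of 21 genes listed with the mitochondrial aminoacyl-tRNA synthetases. No gene of these lists rose. Tufm was the translation factor that fell, by 0.29 ± 0.04 on the log2 scale (edgeR adjusted p = 0.00442). Polg fell by 0.34 ± 0.05 (edgeR adjusted p = 0.00349), and the calls of Tufm and Polg were kept in all 17 alternatives. Elac2 (0.34 ± 0.07) and Tfam (0.33 ± 0.07) fell as well. The call of Elac2 was lost without either Ctrl library, and that of Tfam without Ctrl 1 or either siFGFR1+HG library. Of the regulators, Nrf1 fell by 0.46 ± 0.08, with an adjusted p of 0.0559 without Ctrl 2, and Pprc1 by 0.23 ± 0.05, lost without Ctrl 1 or either siFGFR1+HG library. Gabpa, not called against HG, fell against Ctrl by 0.31 ± 0.07 (edgeR adjusted p = 0.02845). Its call was not followed through the alternatives. Esrra, an orphan nuclear receptor of mitochondrial genes, rose by 0.29 ± 0.05, lost without either Ctrl library or siFGFR1+HG 2. Gadd45gip1 fell by 0.19 ± 0.04, a call lost without any 1 of these 4 libraries, and Rpusd4, a pseudouridine synthase, by 0.36 ± 0.09, lost without any 1 of all 6. Cytosolic ribosomal protein genes had 5 higher (6.10%) and 6 lower (7.32%) of 82. Genes for oxidative phosphorylation had 7 higher (8.86%) and 3 lower (3.80%) of 79. For both lists each share was below that of all genes.

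The median log2 fold changes of the large and small subunits lay close together in each comparison. The large-subunit median minus the small-subunit median was -0.00 in siFGFR1+HG against HG, 0.00 in siFGFR1+HG against Ctrl and -0.01 in HG against Ctrl. Per library, the median log2 level of the large subunit minus that of the small had a pooled SD of 0.04 between replicates. This is a spread of levels, and no spread between replicates was computed for the difference of fold changes. The summed FPKM of all members was 2168 ± 1.35 in siFGFR1+HG, 2506 ± 20.4 in HG and 2268 ± 16.9 in Ctrl (SD, n = 2 each). On the TPM scale, which gives each library the same total, it was 4118 ± 1.76 in siFGFR1+HG, 4600 ± 10.3 in HG and 4305 ± 31.2 in Ctrl. Large-subunit sums were 1399 and 1411 FPKM in siFGFR1+HG, 1606 and 1655 in HG and 1476 and 1490 in Ctrl. Small-subunit sums were 769.5 and 755.7 FPKM in siFGFR1+HG, 885.8 and 866.1 in HG and 780.2 and 789.6 in Ctrl. The HG libraries were the highest for each subunit and did not overlap with the others. The ratio of large to small was 1.82 and 1.87 in siFGFR1+HG, 1.81 and 1.91 in HG and 1.89 and 1.89 in Ctrl, and the range of HG spanned that of both other groups. With 2 libraries against 2, an exact permutation test cannot give a two-sided p below 0.333, so none is given for the ratio.

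**Figure D5:**
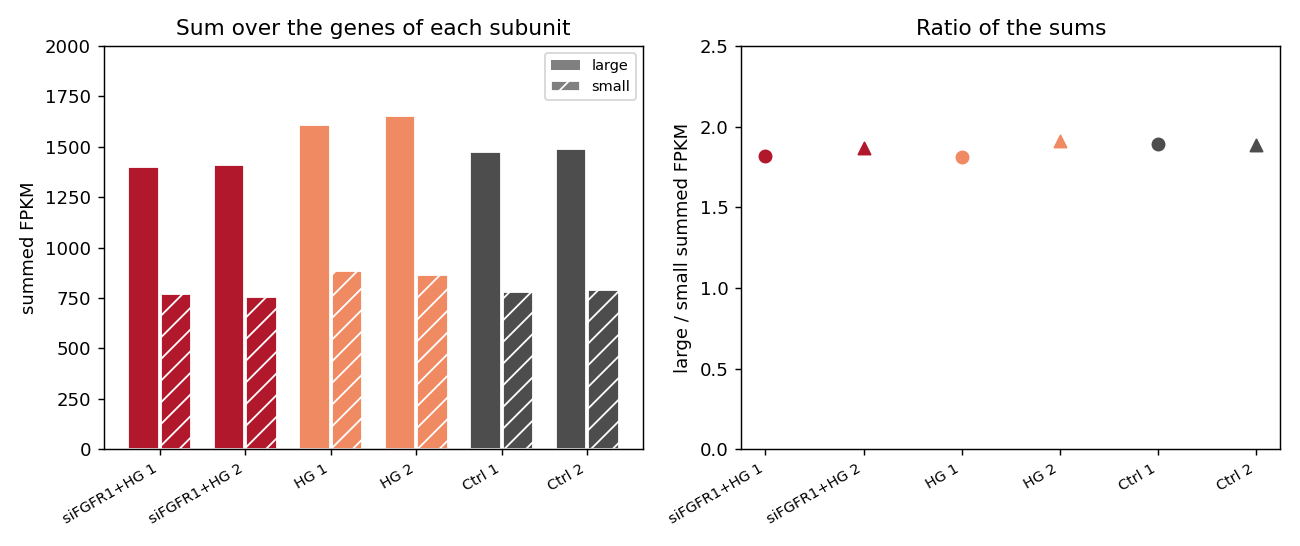
Left, summed FPKM of the 45 large-subunit (plain bars) and 29 small-subunit genes (hatched bars) in each library, from 0; right, the ratio of the sums in each library. Sums are highest in the HG libraries, and the ratios lie between 1.81 and 1.91.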

How the data were processed

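RNA from rat H9C2 cells was sequenced in 6 libraries, 2 for each of 3 groups assigned from the sample labels. The authors deposited 1 table for the series with raw read counts per gene and FPKM values per gene. Per the submitters' processing notes fastp, HISAT2 and StringTie were used, with GRCh38 named as build although the gene IDs are of rat, so no coordinate of the table is tied to a build here. How reads were counted, and whether by strand, is not given in the sources used here. FPKM as deposited was used for levels, and TPM was computed from it.

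Genes that reached 1 FPKM in 2 or more libraries had their counts fitted with edgeR 4.0.16 (R 4.3.3; TMM scaling, quasi-likelihood test, all 3 groups in 1 fit), with Benjamini-Hochberg adjustment over 12229 genes and a threshold of 0.05. Alternatives used DESeq2 1.42.0 and limma 3.58.1, other scalings and filters, and leaving out each library. The fits were tested on simulated data. A chi-square per gene between replicates was computed on counts divided by a fixed number, because it is not stated whether reads or fragments were counted. Its median was 0.696 to 0.807, against 0.455 expected from counting noise alone. Undivided counts would give larger values, so nearness to counting noise is not shown. The medians lay above the expected value, so no library was counted as a second deposit of another. Whether both came from 1 culture is not shown by this. Named with values were the called members with the largest changes (up to 5 each way per subunit and comparison), the 3 highest and lowest of each subunit, and up to 3 called genes of each other list. The members and lists were chosen with earlier results of these data known, and Mrpl4, Mrpl28, Mrpl43, Mrpl14, Mrps17 and the gene pairs were named after their values were seen.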

Additional observations from a re-analysis of the deposited data

How the results depend on the processing

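No called member and no subunit median changed direction under any alternative run. The large-minus-small difference of medians, which no test called, took either sign and lay between -0.03 and 0.01 in siFGFR1+HG against HG, -0.04 and 0.04 in HG against Ctrl and -0.03 and 0.02 in siFGFR1+HG against Ctrl. DESeq2 called 2628 genes and 10 members in HG against Ctrl, where edgeR called 1670 and 6. With upper-quartile scaling the median log2 fold changes were -0.17 (large) and -0.17 (small) in siFGFR1+HG against HG and -0.041 (large) and -0.044 (small) in siFGFR1+HG against Ctrl. Leaving out each library in turn gave 2293 to 3247 called genes and 11 to 26 called members in siFGFR1+HG against HG, 456 to 1302 and 1 to 5 in HG against Ctrl, and 1379 to 2586 and 4 to 8 in siFGFR1+HG against Ctrl. It moved the large-subunit medians between 0.10 and 0.15 in HG against Ctrl and between -0.10 and -0.046 in siFGFR1+HG against Ctrl, and the small-subunit medians between 0.10 and 0.15 and between -0.084 and -0.041 in those comparisons. The cause of these changes was not tested, beyond the fewer libraries in the fit. The large-to-small ratio of summed FPKM without the 3 most abundant genes of each subunit was 1.926 and 1.979 in siFGFR1+HG, 1.934 and 2.061 in HG and 1.969 and 1.966 in Ctrl. With Mrps18a and Mrps30 counted as large and Mrps36 left out it was 2.053 and 2.122 in siFGFR1+HG, 2.065 and 2.173 in HG and 2.179 and 2.153 in Ctrl. Samples were not treated as paired, because no label ties equal replicate numbers together and the differences between replicates correlated at only 0.0595, 0.0514 and -0.0896 between groups over all genes. This does not exclude a shared factor for single genes, and Mrpl14 was lower in replicate 1 of all 3 groups. With the replicate block 23 members were called in siFGFR1+HG against HG, 5 in HG against Ctrl and 7 in siFGFR1+HG against Ctrl, of 3253, 1153 and 2323 genes in all. Of the values of single named genes under the alternatives, 2002 kept their side of the threshold, 210 lost it and 32 gained it. Low counts limit what can be said of Mrpl1 in Ctrl 1 and of Fgfr1.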
